A study of Mus musculus with 45 samples.

Results

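Endothelial cells line the blood vessels of the brain, and 10 of the genes by which they are recognized or by which they recruit leukocytes were followed here, out of 56039 gene identifiers over the 3 deposited tables. The genes were chosen by name: Pecam1, Cdh5, Cldn5, Kdr, Tek and Cd93, which mark endothelial cells, and Sele, Selp, Vcam1 and Icam1, which inflamed vessels display. The main material was whole brain tissue of C57BL/6 mice aged 10 to 15 weeks, flash frozen 24 h after 1 mg/kg of lipopolysaccharide (LPS, a bacterial cell wall product, 4 libraries) given into the peritoneum, or without treatment (4 libraries). The titles of the brain tissue and adult microglia samples carry WT, for wild type. The contrast was microglia, the resident macrophages of the brain, sorted as live CD11b-positive, CD45-intermediate cells. Adult microglia came from mice of the same strain and age range 24 h after LPS at that dose (4 libraries) or phosphate-buffered saline (PBS, 4 libraries). Slice microglia came from neonatal C57BL/6 brain slices held in culture for 2 weeks and then for 24 h in medium alone (9 libraries), with 50 ng/mL TNF (11 libraries) or with 20 ng/mL GM-CSF (9 libraries), each library pooling up to 3 slices per the study's methods. The controls of the brain tissue were not injected, unlike those of the adult microglia, so the injection itself and LPS cannot be told apart in brain tissue. Per the study's methods, the LPS mice were perfused before dissection, which removes most blood cells.

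Pecam1 and Cdh5 (VE-cadherin) encode adhesion molecules of the contacts between endothelial cells, and Cldn5 encodes the principal claudin of the tight junctions that seal the blood-brain barrier. Kdr (VEGF receptor 2) and Tek (Tie2) encode receptor tyrosine kinases for vascular growth factors, and Cd93 encodes a lectin-like membrane glycoprotein of endothelial and some myeloid cells. Leukocytes first roll on the selectins (Sele, E-selectin, and Selp, P-selectin) and then stop on Vcam1 and Icam1, which bind integrins. Sele is known for being nearly silent in resting vessels and switched on through NF-kB by inflammatory signals, whereas Pecam1, Vcam1, Icam1 and Kdr are not restricted to endothelium, since platelets and leukocytes also carry Pecam1 and many activated cells carry Icam1.

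The adhesion genes Icam1, Selp and Sele had the highest ratios of LPS to untreated brain tissue among the 10 genes, so the 250 bases before their RefSeq transcription starts (GRCm38.p6, plus strand) are shown, with the letters GGNNNTTCC, a common form of the NF-kB motif, in capitals wherever they occurred on this or the opposite strand. The windows are chr1:164047984-164048233 for Sele, chr1:164115014-164115263 for Selp and chr9:21015690-21015939 for Icam1.
Sele: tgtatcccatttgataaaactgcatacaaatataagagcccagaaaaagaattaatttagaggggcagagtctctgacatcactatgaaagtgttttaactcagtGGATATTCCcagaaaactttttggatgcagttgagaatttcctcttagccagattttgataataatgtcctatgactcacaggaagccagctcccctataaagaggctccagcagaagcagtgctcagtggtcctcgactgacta
Selp: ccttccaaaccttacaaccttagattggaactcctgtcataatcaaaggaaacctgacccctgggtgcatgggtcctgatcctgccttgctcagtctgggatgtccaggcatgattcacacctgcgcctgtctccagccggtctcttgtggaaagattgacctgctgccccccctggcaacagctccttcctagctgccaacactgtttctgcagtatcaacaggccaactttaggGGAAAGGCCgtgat
Icam1: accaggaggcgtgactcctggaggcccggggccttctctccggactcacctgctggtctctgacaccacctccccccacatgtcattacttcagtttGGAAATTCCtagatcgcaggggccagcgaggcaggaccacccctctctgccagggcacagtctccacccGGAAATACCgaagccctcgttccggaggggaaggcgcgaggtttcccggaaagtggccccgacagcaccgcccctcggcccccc
The Sele match began 145 bases before the start, the Selp match 14 bases before it, and the Icam1 matches 153 and 84 bases before it. No match of these letters was found in the same window of Cldn5, Kdr or Tek, and the 6 genes with a sequence in the table were Sele, Selp, Icam1, Cldn5, Kdr and Tek. A match was present in 15.7% of all 32851 promoter windows of this length, so it is a description of these sequences and not a site of binding.

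The brain libraries held 8199863 to 10368578 counts, the adult microglia libraries 11391564 to 14216005 and the slice libraries 5973364 to 9165485, and the 4 LPS brain libraries were shallower than the 4 untreated ones without overlap. Neuronal markers summed to at least 5372 CPM (counts per 1000000 counts of the effective library size) in every brain library, and microglial markers to at least 36595 CPM in every adult and 8639 CPM in every slice microglia library. The deposited brain values had 3 stretches of the genome, chr1:117662291-136531511, chr1:143093347-163403669 and chr2:3114224-22940266 (GRCm38), with 294 genes listed at 0 in all 8 libraries although the microglia tables held at least 100 counts of each. None of the 10 genes lay in these stretches, but Sele and Selp lay 645 and 712 kb past the end of the second. Among the LPS brain libraries, replicate 3 stood apart from the other 3, with 9 endothelial markers summing to 206 CPM against 276 to 289 CPM in the others and 12 mural cell markers to 234 CPM against 300.1 to 311 CPM, and each result on the 10 genes that turned on it is given with and without it.

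In brain tissue 24 h after LPS, 4 of the 8 genes that had enough counts in both groups were called, all of them higher: Cd93, Pecam1 and Cldn5 among the identity genes and Icam1 among the activation genes. A gene was called when the adjusted p of edgeR's quasi-likelihood test was under 0.05 and the fold change over 1.5, and 3.18% of all 15083 genes passed, 2.63% upward and 0.55% downward. Selp passed the filter on low counts only through the LPS group, so that its call, the fifth, is no support, and Sele did not pass it. Of the same 8 genes, 4 had every LPS library above every untreated one (Pecam1, Cldn5, Cd93 and Icam1), an arrangement found in 9.09% of all genes tested. None had the reverse arrangement, found in 7.81%. Sele and Selp had the first arrangement too, but on too few untreated counts to be set against that share. In tissue, more endothelial cells and more RNA per cell cannot be told apart.

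**Figure D1:**
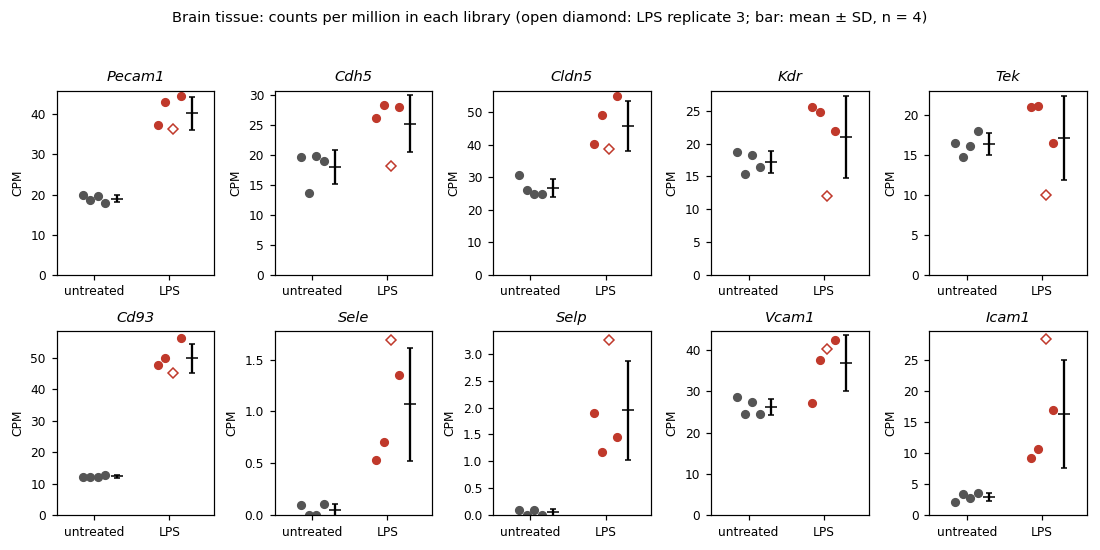
CPM (vertical axes, from 0) of the 10 genes in each untreated and LPS brain tissue library; points are libraries, the open diamond is LPS replicate 3, and bars are the mean ± SD (n = 4). All LPS points of Cd93 sit between 45.3 and 56.4 CPM, above the untreated points at 12 to 12.9, whereas for Kdr and Tek the diamond sits below every untreated point.

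Cd93 had the smallest p of the 10 genes. It was at 12.1, 12.2, 12 and 12.9 CPM in untreated replicates 1 to 4 and at 47.9, 49.9, 45.3 and 56.4 CPM in LPS replicates 1 to 4. The groups lay far apart, and the fitted change was 4.06-fold (log2 2.02, SE 0.08, edgeR adjusted p = 4.46e-10), the third smallest p of all genes tested. Cd93 (ENSMUSG00000027435) lies at chr2:148436640-148443563 on the minus strand.

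Pecam1 (ENSMUSG00000020717, chr11:106654217-106750628, minus strand) was at 19.8, 18.6, 19.6 and 17.9 CPM in the untreated libraries and at 37.2, 43.0, 36.3 and 44.6 CPM in the LPS libraries. No LPS library came near the untreated range, and the change was 2.12-fold (log2 1.09, SE 0.08, edgeR adjusted p = 5.69e-07). Cldn5 (ENSMUSG00000041378, chr16:18776847-18778262, plus strand) was at 30.8, 26.2, 24.9 and 24.8 CPM without treatment and at 40.4, 49.2, 38.7 and 55.2 CPM after LPS. The gap between its groups was narrower than that of Pecam1, with a 1.72-fold change (log2 0.78, SE 0.12, edgeR adjusted p = 0.00126).

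Cdh5 (ENSMUSG00000031871, chr8:104101625-104144511, plus strand) was at 19.6, 13.7, 19.8 and 19.0 CPM in untreated tissue and at 26.3, 28.4, 18.3 and 28.0 CPM after LPS. LPS replicate 3 alone fell within the untreated range, and Cdh5 was not called (log2 0.49, SE 0.15, edgeR adjusted p = 0.0717). Without replicate 3 it was called (log2 0.61, edgeR adjusted p = 0.000407).

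The growth factor receptors did not pass. Kdr (ENSMUSG00000062960, chr5:75932827-75978458, minus strand) was at 18.8, 15.4, 18.3 and 16.4 CPM untreated and at 25.5, 24.9, 12 and 21.9 CPM after LPS. Of the 4 LPS libraries, 3 lay above and 1, replicate 3, below all untreated libraries, which left log2 0.30 (SE 0.21, edgeR adjusted p = 0.463), and log2 0.49 (edgeR adjusted p = 0.000795, under the fold limit) without replicate 3. Tek (ENSMUSG00000006386, chr4:94739289-94874976, plus strand) was at 16.5, 14.8, 16.1 and 18 CPM untreated and at 21, 21.1, 9.91 and 16.5 CPM after LPS. The Tek libraries of both groups interleaved (log2 0.07, SE 0.21, edgeR adjusted p = 0.878), and its sign depended on single libraries, at log2 -0.04 without LPS replicate 1 or replicate 2 and 0.26 without replicate 3.

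Among the activation genes, Icam1 (ENSMUSG00000037405, chr9:21015985-21028817, plus strand), the ligand of the leukocyte integrins LFA-1 and Mac-1, was at 2.11, 3.40, 2.79 and 3.55 CPM in untreated tissue. After LPS it was at 9.18, 10.7, 28.4 and 17.0 CPM, with replicate 3 the highest. All LPS libraries exceeded the untreated ones, but with a wide spread among themselves (16.3 ± 8.73 CPM, SD, n = 4), and the fitted 5.45-fold change (log2 2.45) carried an SE of 0.45 and an edgeR adjusted p of 0.015. Without replicate 3 the change was log2 2.04 (edgeR adjusted p = 4.40e-05), and without untreated replicate 3 the adjusted p was 0.0526, past the limit.

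Selp (ENSMUSG00000026580, chr1:164115264-164150026, plus strand) had 1, 0, 1 and 0 counts in the untreated libraries and 18, 10, 27 and 13 in the LPS libraries. Sele (ENSMUSG00000026582, chr1:164048234-164057677, plus strand) had 1, 0, 0 and 1 counts untreated and 5, 6, 14 and 12 after LPS. Both selectins were thus near 0 in untreated brain and present in every LPS library, at low levels even there. Scaled to effective library size, the ratio of summed counts was 38.2 for Selp (68 against 2 counts, exact 95% interval 10.2 to 322) and 20.8 for Sele (37 against 2 counts, exact 95% interval 5.36 to 178), and these intervals cover counting error only.

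Vcam1 (ENSMUSG00000027962, chr3:116109949-116129688, minus strand), the ligand of the integrin VLA-4, was at 28.5, 24.5, 27.3 and 24.6 CPM untreated and at 27.1, 37.6, 40.4 and 42.5 CPM after LPS. LPS replicate 1 lay within the untreated range and the other 3 above it. The change of log2 0.49 (SE 0.12, edgeR adjusted p = 0.0286) passed the p limit but not the fold limit. Leaving out LPS replicate 1 made it a call (log2 0.61, edgeR adjusted p = 0.000167), and leaving out replicate 3 took it past the p limit (log2 0.44, edgeR adjusted p = 0.0964).

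The ratios between the genes within a library also differed between the groups. Relative to Cdh5 in the same library, Cd93 ranged from 0.607 to 0.894 in untreated tissue and from 1.76 to 2.48 after LPS, and Pecam1 from 0.940 to 1.35 and from 1.42 to 1.99, in both cases without overlap. Tek moved the other way against Cdh5, from 0.817 to 1.08 in untreated tissue and from 0.543 to 0.799 after LPS. Cldn5 per Cdh5 overlapped, at 1.26 to 1.91 untreated and 1.54 to 2.12 after LPS, and so did Kdr per Cdh5, at 0.863 to 1.12 and 0.656 to 0.972. These ratios are descriptions, with no test.

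LPS replicate 3 was the lowest LPS library for all 6 identity genes and the highest for Icam1, Selp and Sele. Against the mean of the other 3 LPS libraries it held 0.496 times the Kdr, 0.507 times the Tek and 0.663 times the Cdh5, but 2.31 times the Icam1, 2.16 times the Selp and 1.97 times the Sele. Its Pecam1, Cldn5, Cd93 and Vcam1 lay between 0.802 and 1.13 times that mean. Microglial markers were also lower in it, at 231 CPM in sum against 351 to 380 CPM in the other 3. The part of tissue composition or RNA quality in this library was not tested.

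**Figure D2:**
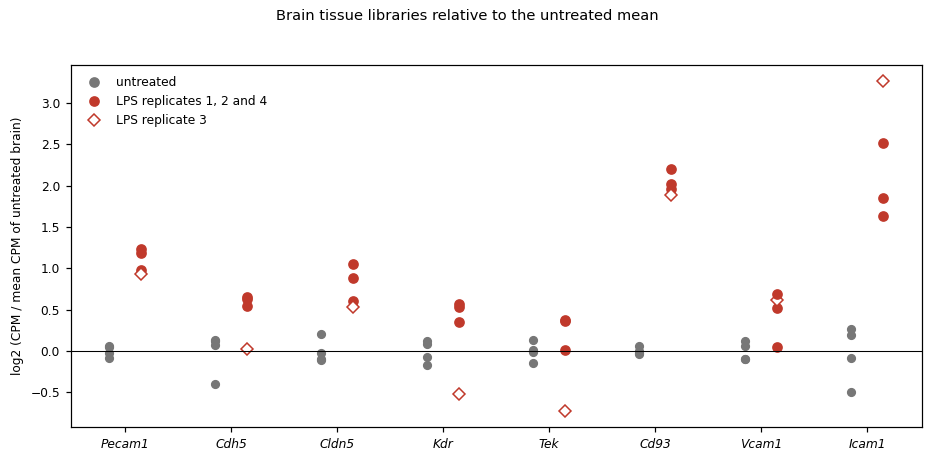
Log2 ratio of CPM to the mean of untreated brain tissue (vertical axis) for 8 genes, Sele and Selp being left out because some untreated libraries were at 0; grey points are untreated libraries, red points LPS libraries, and the open diamond LPS replicate 3. The diamond is the lowest LPS library for Pecam1, Cdh5, Cldn5, Kdr, Tek and Cd93 and the highest for Icam1.

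Of 31 other endothelial identity genes 30 were tested, and 11 were called higher and 1, Itm2a, lower (log2 -0.95, edgeR adjusted p = 0.0376), with a median log2 change of 0.51 against 0.00 over all genes, of which 2.63% were called higher and 0.55% lower. Ly6a (Sca-1) was at 72.8 ± 13.8 CPM after LPS and 17.0 ± 2.55 CPM untreated (SD, n = 4, log2 2.09, edgeR adjusted p = 5.28e-05), and Ly6c1, another member of that family on brain endothelium, at 71.9 ± 14.1 and 24.2 ± 2.81 CPM (log2 1.57, edgeR adjusted p = 0.000216). Nos3, the endothelial nitric oxide synthase, rose by log2 1.14 (edgeR adjusted p = 8.32e-07) and the adhesion receptor Adgrl4 by log2 0.65 (edgeR adjusted p = 0.000149). The VEGF receptor Flt1 was at 66.4 ± 13.7 and 70.9 ± 3.17 CPM (log2 -0.09, edgeR adjusted p = 0.767, and log2 0.04 without LPS replicate 3), and the cadherin Cdh13 at 87.2 ± 6.59 and 90.0 ± 2.91 CPM (log2 -0.05, edgeR adjusted p = 0.668), neither of which was called. Some genes of this list are also expressed by microglia, with Cd34 at 335, Fli1 at 231 and Ecscr at 231 CPM in PBS adult microglia. The list therefore does not show which cells changed.

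Of 22 blood-brain barrier junction and transport genes 2 were called higher and 1 lower, where 3.18% of all genes passed, with a median of -0.01. Lsr, a protein of tricellular junctions, rose from 6.13 ± 0.445 to 15.2 ± 2.42 CPM (log2 1.31, edgeR adjusted p = 1.18e-05), and F11r (JAM-A) by log2 0.73 (edgeR adjusted p = 0.00139). F11r was at 8.20 ± 0.740 CPM in untreated brain and at 1043 ± 29.2 CPM in PBS adult microglia, on scales normalized separately. The part of microglia in the F11r change was not tested. Slc7a5, a subunit of the large neutral amino acid transporter, fell from 80.0 ± 1.18 to 50.2 ± 3.91 CPM (log2 -0.67, edgeR adjusted p = 1.59e-06). The transferrin receptor Tfrc, at log2 -0.12 (edgeR adjusted p = 0.712), and Ctnnb1 (beta-catenin), at log2 -0.08 (edgeR adjusted p = 0.149), were not called, and neither is restricted to endothelium.

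Of the other endothelial activation and coagulation genes, 10 of 26 tested were called higher and none lower, with a median of 0.68. Over all genes tested, 2.63% were called higher and 0.55% lower. The rest of the 33 listed had too few counts, and Ptgs2 lay in a stretch listed at 0. Lrg1 was at 7.49 ± 3.37 CPM after LPS and 0.762 ± 0.0814 CPM untreated on 260 and 30 counts, and the chemokine Cxcl10 at 3.38 ± 0.596 and 0.587 ± 0.201 CPM on 119 and 23 counts. Both were called, but no untreated library held 10 counts of either, so that both passed the filter only through the LPS group. Since the 10 calls include such genes, that count is no support for an excess over the share of all genes. The signaling inhibitor Socs3 and the TNF receptor Tnfrsf1a rose by log2 1.67 (edgeR adjusted p = 0.00024) and 1.04 (edgeR adjusted p = 0.000122). The chemokine receptor Ackr1, at log2 0.47 (edgeR adjusted p = 0.00102), and the plasminogen activator Plat, at log2 0.56 (edgeR adjusted p = 0.00608), passed the p limit but not the fold limit. Several of these genes are also expressed by microglia and astrocytes, so the list does not show which cells changed.

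On the leukocyte side of these contacts, 1 of 8 counter-receptors tested of 12 was called, where 3.18% of all genes passed. Itgb2, the beta subunit of LFA-1 and Mac-1, rose from 5.39 ± 0.532 to 11.6 ± 1.73 CPM (log2 1.10, edgeR adjusted p = 0.000108), and the median of the list was 0.16. Without LPS replicate 3 the integrin subunit Itgam was called as well (log2 0.80, edgeR adjusted p = 2.78e-06, against log2 0.65 and 0.0583 with it). Glg1 (an E-selectin ligand) was at log2 0.05 (edgeR adjusted p = 0.502), and the integrin subunit Itgb1 at log2 0.18 (edgeR adjusted p = 0.186). Of 12 VEGF and angiopoietin genes tested of 13, Flt4 (VEGF receptor 3) was called higher (log2 0.68, edgeR adjusted p = 0.0144), the median was 0.13, and Vegfa was under the fold limit (log2 -0.35, edgeR adjusted p = 0.0101).

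Markers of neighbouring cells moved as follows beside these results, where 2.63% of all genes tested were called higher and 0.55% lower. Of 12 mural cell markers none was called, with a median of -0.10 and sums of 309 to 344 CPM untreated and 234 to 311 CPM after LPS. Sums of 9 endothelial markers, 5 of which are among the 10 genes, were 191 to 217 CPM untreated and 206 to 289 CPM after LPS, with 2 of 9 called higher, Pecam1 and Cldn5, and a median of 0.49. Choroid plexus markers, none of which was called, had a like median of 0.48 with 6 of 6 positive, and their sums went from 339 to 460 CPM untreated to 411 to 506 CPM after LPS. Vascular fibroblast markers summed to 80.2 to 119 and 106 to 131 CPM, with 1 of 6 called higher (Dcn, log2 0.95, and not called without LPS replicate 3). Border macrophage markers summed to 3.52 to 4.66 and 7.37 to 9.43 CPM, with Cd163 (log2 0.89) and Lyve1 (log2 1.68) called higher of 3 tested and Mrc1 in a stretch listed at 0. Without LPS replicate 3 the genes called there were Lyve1 (log2 1.81) and Cbr2 (log2 1.05). Monocyte markers summed to 28.6 to 34.3 and 35.1 to 41.6 CPM, with 0 of 3 called, or F13a1 (log2 1.06) without LPS replicate 3. Of 8 microglial markers 3 were called lower, P2ry12 (log2 -1.57), Gpr34 (log2 -1.67) and Siglech (log2 -0.72, not called without LPS replicate 3), around sums of 279 to 320 and 231 to 380 CPM. Without that library Tmem119 (log2 0.67) was called higher. Astrocyte markers summed to 4556 to 4958 and 4899 to 5247 CPM, with Gfap (log2 1.36) called higher of 7, and neuronal markers to 5726 to 5873 and 5372 to 5887 CPM with 0 of 5 called. Neutrophil markers summed to 1.36 to 3.10 CPM untreated and 4.83 to 9.77 CPM after LPS, with 1 of 2 tested, S100a9, called higher. That untreated sum covered 9 neutrophil genes, so the S100a9 call rests on few untreated counts and is no support. Platelet markers summed to 11 to 14.8 and 7.01 to 12.6 CPM, and red blood cell markers to 110 to 281 and 58.5 to 158 CPM. The part of these cells in the changes of the 10 genes and the lists was not tested.

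**Figure D3:**
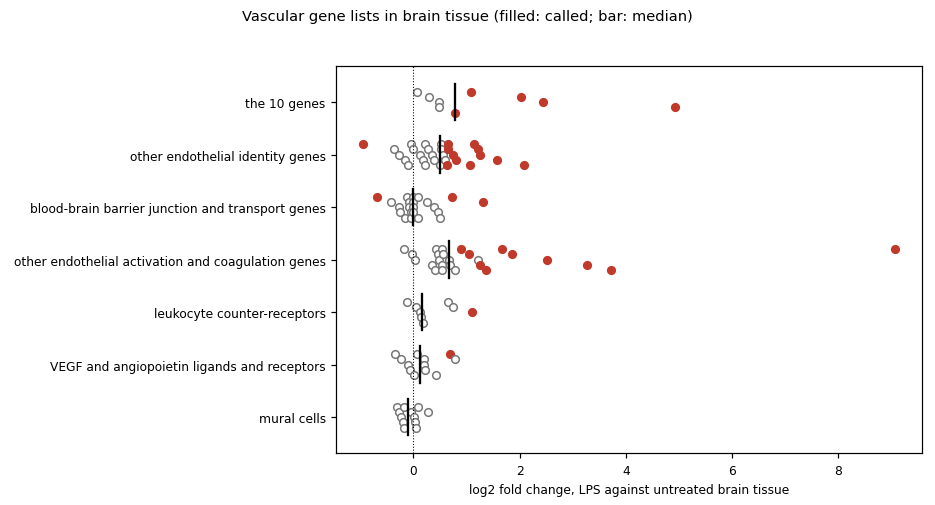
Fitted log2 fold changes in brain tissue (horizontal axis) for the 9 tested genes of the 10 (Selp only through its LPS counts) and for 6 lists; filled points were called, open points were not, and black bars are list medians. The medians lie at 0.51 for other endothelial identity genes, 0.68 for other activation genes, -0.01 for barrier genes and -0.10 for mural cells.

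Per kilobase of exon, which allows levels to be compared between genes, Cldn5 led in untreated brain at 18.8 ± 1.98 CPM per kb (SD, n = 4), and no library of the next gene reached its range. Cdh5 (4.29 ± 0.689), Tek (3.47 ± 0.279), Pecam1 (3.04 ± 0.144) and Vcam1 (2.96 ± 0.229) followed, each overlapping its neighbour in that order. Kdr (1.91 ± 0.179) and Cd93 (1.84 ± 0.0581) lay below and overlapped each other, and Icam1 (0.680 ± 0.151), Sele (0.0176 ± 0.0203) and Selp (0.0116 ± 0.0133) came last. After LPS, Cd93 stood second at 7.47 ± 0.708 CPM per kb, overlapping Pecam1 (6.47 ± 0.666), and Icam1 reached 3.74 ± 2.00 CPM per kb, overlapping Tek (3.64 ± 1.12).

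Sorted adult microglia carried a different part of the list. Cldn5, Tek, Sele and Selp were listed at 0 in all 8 libraries, Cdh5 had 16 counts in the 4 PBS and 27 in the 4 LPS libraries, and Cd93 had 7 and 2. A count of 0 over the 4 PBS libraries allows up to 0.0554 CPM (3 counts over the group), at least 481-fold lower than Cldn5 and at least 295-fold lower than Tek in untreated brain, on scales normalized separately for each table. Pecam1, Kdr, Vcam1 and Icam1 were present and could be tested, and all 4 were called, 2 higher and 2 lower. Among all 12987 genes 27.4% passed, 14.4% upward and 13% downward.

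Pecam1 and Kdr fell in microglia after LPS. Pecam1 was at 35.9, 32.0, 34.4 and 28.4 CPM in PBS replicates 1 to 4 and at 9.63, 12, 12.4 and 9.57 CPM in LPS replicates 1 to 4. The groups were far apart (log2 -1.59, SE 0.12, edgeR adjusted p = 1.42e-06). Kdr was at 13.4, 11.2, 8.46 and 11.8 CPM with PBS and at 6.42, 3.68, 4.07 and 4.86 CPM with LPS, again without overlap (log2 -1.23, SE 0.20, edgeR adjusted p = 0.000352). Beside Pecam1, neutrophil markers, of which all 10 had counts in the PBS libraries, summed to 41.0 to 84.6 CPM with PBS and 2.99 to 9.33 CPM with LPS (Elane, Ly6g and Retnlg at 0). Platelet markers summed to 31.4 to 35.3 and 6.04 to 13 CPM, most of it Gp9 (31.7 ± 2.12 and 7.91 ± 2.52 CPM), whereas Itga2b and Ppbp, which define platelets, stayed at or under 0.767 CPM in every library. The part of these cells in the fall of Pecam1 was not tested.

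Icam1 and Vcam1 rose. Icam1 was at 260, 234, 234 and 204 CPM in the PBS libraries and at 674, 339, 486 and 553 CPM in the LPS libraries (log2 1.14, SE 0.19, edgeR adjusted p = 0.000898). Vcam1 was at 19.5, 17.0, 12.5 and 12.1 CPM with PBS and at 75.5, 27.7, 46.2 and 60.9 CPM with LPS (log2 1.79, SE 0.32, edgeR adjusted p = 0.00194). LPS replicate 2 was the lowest LPS library for both, yet still above every PBS library. Of the 10 genes, Icam1 and Vcam1 did not overlap upward, as in 24.1% of all genes tested, and Pecam1, Kdr and Cd93 did not overlap downward, as in 23.3%, Cd93 resting on 7 against 2 counts.

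The LPS effects in tissue and in microglia differed for 3 of the 4 genes with enough counts in both tables, tested as an interaction term over 16 libraries. The log2 difference, tissue effect minus microglia effect, was 2.68 for Pecam1 (SE 0.15, edgeR adjusted p = 7.25e-10), 1.54 for Kdr (SE 0.30, edgeR adjusted p = 0.000517) and -1.29 for Vcam1 (SE 0.36, edgeR adjusted p = 0.0131). Among 16676 genes 19.7% passed, 10.6% with a positive and 9.1% with a negative difference. Pecam1 thus rose in tissue and fell in microglia, and Kdr fell in microglia while its tissue change was not called. Vcam1 rose in microglia by more than in tissue. For Icam1 the difference was 1.31 (SE 0.50, edgeR adjusted p = 0.064) and missed the limit, although DESeq2 (adjusted p = 0.0121) and a fit with the replicate number as a block (adjusted p = 0.022) passed it. Cd93, with 9 counts in the 8 microglia libraries, and Cdh5, with 16 and 27, entered the joint fit only through brain tissue, so no test of their difference is given. Cldn5, Tek, Sele and Selp had no counts in microglia, so no difference could be estimated.

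At baseline, PBS microglia held 80.5 times the Icam1 of untreated brain (log2 6.33, SE 0.36, edgeR adjusted p = 3.54e-10) and 1.77 times its Pecam1 (log2 0.83, SE 0.10, edgeR adjusted p = 2.65e-07). Vcam1 was lower in microglia by log2 -0.74 (SE 0.26, edgeR adjusted p = 0.0161). Cd93 was 96.0-fold and Cdh5 61.3-fold lower there as ratios of mean CPM, on 7 and 16 counts and with no test. Kdr, at log2 -0.57 (SE 0.20, edgeR adjusted p = 0.0115), stayed just under the fold limit. In this comparison 79.9% of 16676 genes passed, 33.5% upward and 46.4% downward, around a median of -0.38, and sample type, library kit and read layout cannot be told apart.

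Many genes of the other lists were also measurable in adult microglia. Of 31 other identity genes 9 could be tested, with 2 called higher, 4 lower and a median of -0.63 against 0.01 over all genes, of which 14.4% were called higher and 13% lower. The TGF-beta co-receptor Eng fell from 137 ± 5.32 to 63.7 ± 7.72 CPM (log2 -1.10, edgeR adjusted p = 1.64e-06), the transcription factor Fli1 by log2 -0.63 (edgeR adjusted p = 5.29e-05) and Plvap, of endothelial diaphragms, by log2 -2.21 (edgeR adjusted p = 0.000407, from 177 to 36 counts, enough for the filter only with PBS), and Vwf was the other gene called lower (log2 -2.10, edgeR adjusted p = 0.00291). Cd34 rose from 335 ± 13.4 to 595 ± 42.2 CPM (log2 0.83, edgeR adjusted p = 2.56e-06), and Ly6a was the other gene called higher (log2 1.58, edgeR adjusted p = 0.00319). Ecscr, at 157 ± 28.1 and 231 ± 13.7 CPM (log2 -0.56, edgeR adjusted p = 0.00109), and Tal1, at log2 0.14 (edgeR adjusted p = 0.439), were not called.

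Of 33 other activation genes, 12 of 23 tested were called higher and 3, Procr, Vwf and Il6, lower in adult microglia, where 27.4% of all genes passed, with a median of 0.62. Socs3 rose from 36.2 ± 2.49 to 383 ± 33.7 CPM (log2 3.40, edgeR adjusted p = 6.42e-10), and the NF-kB cofactor Bcl3 by log2 4.06 (edgeR adjusted p = 2.47e-07). Ch25h was at 0.637 ± 0.394 CPM with PBS and 17.5 ± 6.25 CPM with LPS (35 and 928 counts) and Lrg1 at 0.0741 ± 0.0588 and 48.0 ± 22.2 CPM (4 and 2548 counts), and both were called but passed the filter only through the LPS group. The 12 calls include such genes, so that count is no support for an excess over the share of all genes. The TNF receptors Tnfrsf1b (log2 0.07, edgeR adjusted p = 0.467) and Tnfrsf1a (log2 0.18, edgeR adjusted p = 0.0598) were not called. Of 17 barrier genes tested 5 were called higher and 4 lower (median 0.08, against the same 14.4% and 13% of all genes), among them Tfrc (log2 1.32, edgeR adjusted p = 0.00022) and the monocarboxylate transporter Slc16a1 (log2 0.78, edgeR adjusted p = 0.000144) upward, with Slc2a1, Slc7a5 and Cldn12, and Tjp1 (log2 -0.93, edgeR adjusted p = 0.000288) and Jam2 (log2 -1.29, edgeR adjusted p = 0.000799) downward, with Marveld2 and Cav1. F11r, at 1107 ± 52.5 CPM after LPS and 1043 ± 29.2 CPM with PBS (log2 0.09, edgeR adjusted p = 0.279), and the transporter subunit Slc3a2, at log2 0.56 (edgeR adjusted p = 0.00124), were not called.

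Of the 12 counter-receptors, which leukocytes use to bind these vessels, 10 were tested in adult microglia, and 6 were called higher and 1 lower, with a median of 0.71. Over all genes tested there, 14.4% were called higher and 13% lower. Selplg (PSGL-1), the receptor of Selp, fell from 5578 ± 162 to 2702 ± 414 CPM (log2 -1.05, edgeR adjusted p = 7.24e-06). The integrin subunits Itgb2 (log2 0.74, edgeR adjusted p = 6.02e-05) and Itgam (log2 0.67, edgeR adjusted p = 7.84e-05) rose, and Itgb7 was called on 48 counts with PBS and 265 with LPS, enough for the filter only with LPS, while Itgb1 (log2 0.21, edgeR adjusted p = 0.0471) and Glg1 (log2 -0.07, edgeR adjusted p = 0.334) were not called. Of 4 VEGF and angiopoietin genes tested (median 0.13), Vegfb was called lower (log2 -1.04, edgeR adjusted p = 0.0019), and Nrp1 (log2 0.38, edgeR adjusted p = 0.00149) and Nrp2 (log2 0.51, edgeR adjusted p = 0.000575) stayed under the fold limit.

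**Figure D4:**
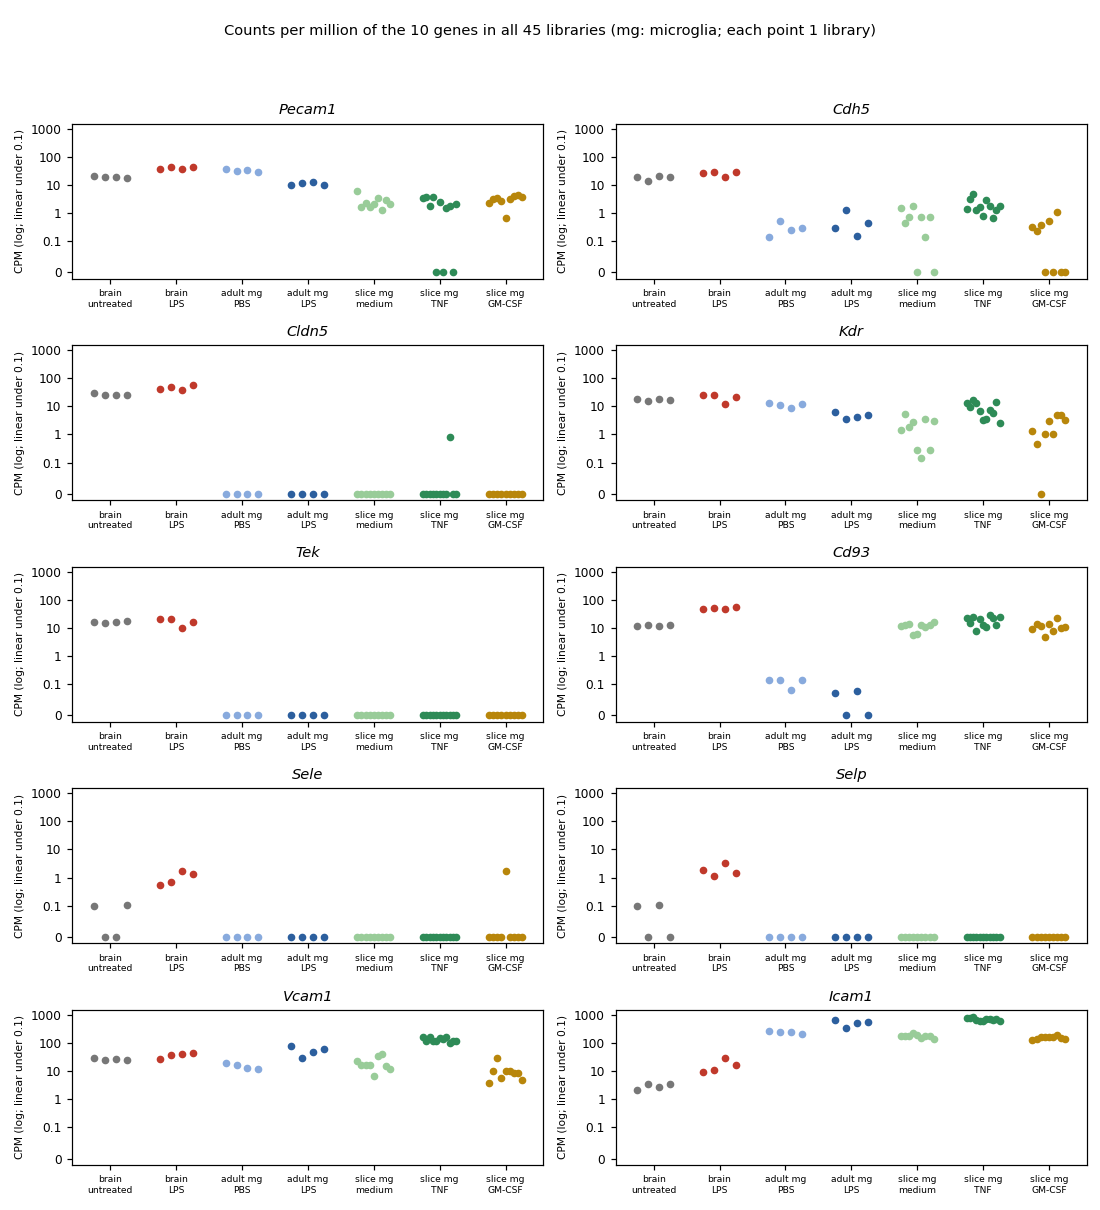
CPM of the 10 genes (vertical axes, logarithmic above 0.1 and linear below) in all 45 libraries of the 7 groups; each point is 1 library, and the tables were normalized separately. Cldn5 and Tek are present in every brain library, and Selp in every LPS brain library but at or near 0 in untreated ones. These genes are at 0 in microglia except for 1 TNF library of Cldn5, whereas Icam1 is higher in every microglia library than in every brain library.

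In slice microglia Tek and Selp had 0 counts in all 29 libraries, Cldn5 had 5 counts in TNF replicate 9 alone, and Sele had 13 counts in GM-CSF replicate 5 alone. In these 3 groups 0 counts allow at most 0.0446 CPM over the group. Cdh5 had 0 to 12 counts per library in medium, 4 to 39 with TNF and 0 to 8 with GM-CSF and did not pass the filter. Cd93 had counts in every slice library, at a lowest, median and highest value of 5.64, 12.5 and 16.8 CPM in medium.

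After TNF, 4 of the 5 genes tested were called, all higher, where 20.8% of 11313 genes passed, 9.1% upward and 11.7% downward. Icam1 had a lowest, median and highest value of 132, 179 and 224 CPM in medium and of 575, 677 and 861 CPM with TNF (log2 1.97, SE 0.09, edgeR adjusted p = 4.78e-19). Vcam1 was at 6.57, 16.7 and 39.8 CPM in medium and 96.2, 120 and 157 CPM with TNF (log2 2.69, SE 0.28, edgeR adjusted p = 2.60e-09). For these 2 genes every TNF library lay above every medium library, as for 6.25% of all genes tested. Of the 10 genes none lay wholly below, as 4.01% did.

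Kdr and Cd93 also rose with TNF, with overlapping groups. Kdr was at 0.149, 1.91 and 5.53 CPM in medium and 2.59, 7.70 and 16.5 CPM with TNF (log2 2.01, SE 0.54, edgeR adjusted p = 0.0027). Per library it held 1 to 51 counts in medium (median 16) and 17 to 134 with TNF (median 53), so some medium libraries lay under 10 counts. Beside it, the endothelial markers Tek, Tie1 and Emcn were at 0 in both groups. The sums of 9 endothelial markers, Kdr included, were 7.15 to 20.4 CPM in medium and 12.2 to 38.1 CPM with TNF. Esam, another of them, was at 1.36 ± 0.616 CPM in medium (SD, n = 9) and 3.53 ± 1.99 CPM with TNF (n = 11). Flt1, also of that list, was at 6.26 ± 4.30 and 6.18 ± 3.35 CPM (log2 -0.01, edgeR adjusted p = 0.979). Of the 4 markers tested, 2 were positive and 2 negative, and Kdr alone was called. Mural markers summed to 74.1 to 174 and 130 to 258 CPM, most of it Cspg4 (102 ± 32.8 and 172 ± 48.1 CPM, log2 0.76, edgeR adjusted p = 0.00108) and Anpep (9.43 ± 2.89 and 20.5 ± 9.47 CPM, log2 1.12, edgeR adjusted p = 0.00125), both called and neither restricted to mural cells, whereas the pericyte gene Rgs5 had 3 counts in medium and 11 with TNF and Pdgfrb 14 and 68. Cdh5 had 44 counts in medium and 155 with TNF. The part of vascular cells in the Kdr change was not tested. Cd93 had a TNF range of 7.85 to 28.9 CPM with a median of 20.2 CPM (log2 0.69, SE 0.24, edgeR adjusted p = 0.0205). The titles carry codes (1A, 1B, 2A and 2B) whose meaning the labels do not give. Within 1A and 1B alone Cd93 was at log2 0.64 (edgeR adjusted p = 0.153) and within 2A and 2B alone at 0.76 (edgeR adjusted p = 0.113), so that it passed in neither, while Icam1, Vcam1 and Kdr passed in both. Pecam1 was at 0, 1.75 and 3.74 CPM with TNF, with no count in replicates 5, 7 and 10, and was not called (log2 -0.47, SE 0.53, edgeR adjusted p = 0.514).

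With GM-CSF, 1 of 5 genes tested was called, Vcam1, lower, where 10.8% of genes passed, 4.84% upward and 5.96% downward. Vcam1 was at a lowest, median and highest value of 3.68, 8.41 and 28.0 CPM (log2 -1.01, SE 0.30, edgeR adjusted p = 0.0111), overlapping medium. It passed within 2A and 2B (log2 -1.34, edgeR adjusted p = 0.0165) but not within 1A and 1B (log2 -0.61, edgeR adjusted p = 0.367). Icam1 was at 123, 157 and 195 CPM (log2 -0.18, SE 0.09, edgeR adjusted p = 0.162). Every one of these groups overlapped medium. Pecam1 was at 0.667, 3.23 and 4.37 CPM (log2 0.24, SE 0.54, edgeR adjusted p = 0.803), against 1.25, 2.05 and 6.02 CPM in medium, and was not called. Cd93 was at 4.74, 10.3 and 21.8 CPM (log2 0.03, SE 0.25, edgeR adjusted p = 0.957) and Kdr at 0, 1.30 and 4.91 CPM (log2 0.04, SE 0.56, edgeR adjusted p = 0.969), neither of which was called. Kdr was lower within 1A and 1B (log2 -2.04, edgeR adjusted p = 0.0391) and positive within 2A and 2B (log2 1.21, edgeR adjusted p = 0.348). None of the 10 genes separated the GM-CSF and medium libraries, where 2.93% of all genes tested did so upward and 2.67% downward. TNF and GM-CSF were compared with the same medium libraries.

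In the lists, where 9.1% of all genes tested were called higher and 11.7% lower with TNF, and 4.84% and 5.96% with GM-CSF, TNF gave 16 calls of 25 activation genes tested, all higher (median 1.54 against -0.03 over all genes), led by Nfkbia (log2 2.01, edgeR adjusted p = 2.13e-22), Ccl2 (log2 4.95, edgeR adjusted p = 1.80e-21), Birc3 (log2 2.02, edgeR adjusted p = 8.71e-19) and Cxcl10 (log2 5.84, edgeR adjusted p = 8.02e-16), while Tnfrsf1b (log2 0.38) and Tnfrsf1a (log2 0.22) stayed under the fold limit. GM-CSF gave 3 higher and 3 lower (median 0.00), with Ccl2 (log2 3.80, edgeR adjusted p = 6.74e-18), Il6 (log2 3.84, edgeR adjusted p = 2.97e-12) and F3, tissue factor (log2 1.71, edgeR adjusted p = 1.02e-05), upward and Xdh (log2 -0.96, edgeR adjusted p = 2.27e-05), Fas (log2 -0.89) and Tnfaip3 (log2 -0.75) downward, and with Nfkbia at log2 0.03 (edgeR adjusted p = 0.787). Il6 had 97 counts in medium, where 4 of 9 libraries held 10 or more, and 1431 with GM-CSF. Of 10 other identity genes tested, TNF gave 1 higher and 5 lower (median -0.47), with Ly6a up (log2 2.7, edgeR adjusted p = 1.11e-05) and Fli1 (log2 -1.14), Ecscr (log2 -1.90), Cd34 (log2 -1.48), Egfl7 (log2 -0.95) and Tal1 (log2 -0.70) down. GM-CSF gave 0 higher and 2 lower (median -0.27), Ecscr (log2 -1.50, edgeR adjusted p = 5.98e-09) and Ly6a, on 166 counts in medium and 43 with GM-CSF, where 1 library held 10 counts or more.

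Of 15 barrier genes tested, TNF gave 3 higher and 1 lower (median 0.03), with the glucose transporter Slc2a1 (log2 1.18), Slc7a5 (log2 1.18) and Cav1 (log2 1.61) up and F11r (log2 -1.25) down, and GM-CSF gave 1 higher and 2 lower (median -0.01), Slc7a5 (log2 1.49), F11r (log2 -0.88) and Jam2 (log2 -0.97). Cav1 had 143 counts in medium, where 6 of 9 libraries held 10 or more, and 492 with TNF. Over all genes tested, 9.1% were called higher and 11.7% lower with TNF, and 4.84% and 5.96% with GM-CSF. Of 9 counter-receptors, TNF gave 2 higher and 1 lower (median 0.11) and GM-CSF 1 lower (median -0.11). Selplg was that lower gene in both, at log2 -1.69 with TNF and -0.82 with GM-CSF, and Cd44 (log2 1.35) and Itgal (log2 0.87) rose with TNF. Of 7 VEGF and angiopoietin genes, TNF gave 3 higher and 1 lower (median 0.86) and GM-CSF 2 lower (median -0.35). The semaphorin and VEGF co-receptor Nrp1 was lower with both (log2 -1.17 and -1.29), whereas Nrp2 was higher with TNF (log2 1.13) and lower with GM-CSF (log2 -0.74), Vegfa (log2 0.86) rose with TNF, and Angpt2 was called higher on 21 counts in medium and 165 with TNF, passing the filter only through the TNF group.

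**Figure D5:**
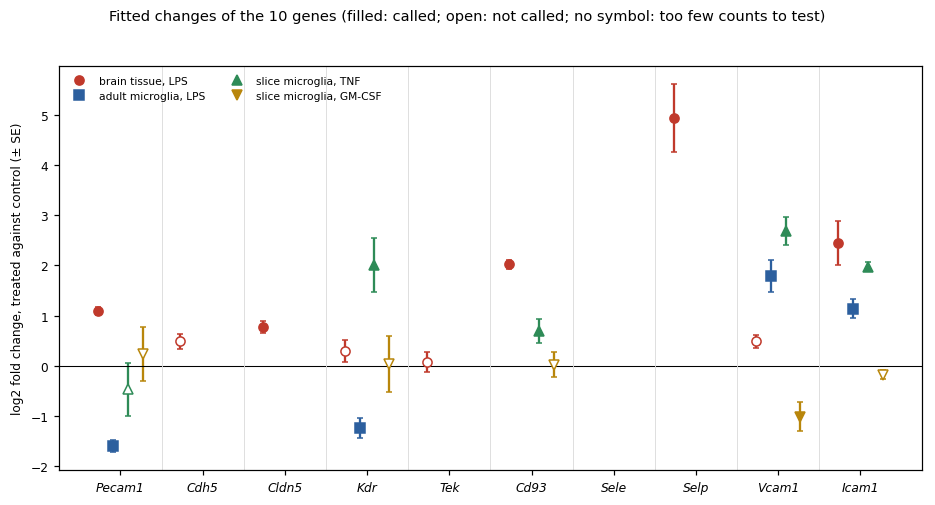
Fitted log2 fold changes (vertical axis, ± SE) of the 10 genes in the 4 comparisons of treated with control libraries; filled symbols were called, open symbols were not, and missing symbols had too few counts. Selp in brain tissue is drawn as called but passed the filter only through its LPS counts, so its symbol is no support. Pecam1 sits at 1.09 in brain tissue and -1.59 in adult microglia, whereas Icam1 is above 1 for LPS in both and for TNF.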

How the data were processed

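Brain tissue RNA went into a TruSeq mRNA preparation, and microglia RNA into SMART-Seq v4 cDNA and Nextera XT libraries. For brain tissue and adult microglia the authors deposited expected counts (estimated counts per gene), and for slice microglia whole-number counts. The submitters' processing notes name STAR 2.7.0a, Subread 1.6.4 and featureCounts with mm10 for the slice samples; for the other tables the aligner, the counter and any use of strand were not given in the sources used here, so overlapping genes could share reads. Expected counts were rounded (69680 brain and 70872 adult values were not whole), 92 brain rows without a gene held 0% of counts, per-sample columns without a sample numbered 0, and symbols and coordinates came from GENCODE M21 (GRCm38).

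Each table was filtered by edgeR 4.0.16 (minimum count 10, minimum total 15), scaled by TMM and tested by robust quasi-likelihood fits in R 4.3.3 with Benjamini-Hochberg adjustment over all genes tested, all groups of a table in 1 fit; brain tissue and adult microglia were joined for the interaction. Called means adjusted p under 0.05 and fold over 1.5. CPM use effective library sizes, and levels per kb use the summed exon length. Intervals are exact 95% conditional binomial, limits of 0 are 3 counts over the group, and both cover counting error only. The scripts were tested on simulated data. Alternatives were total counts, DESeq2 1.42.0, limma-voom (limma 3.58.1), other filters, no fold limit, the replicate block, title codes and leaving out libraries.

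Replicates are separate samples per the labels. Per the study, brain tissue and adult microglia samples were separate mice, and slice samples were separately treated slice pools taken from 4 experiments, which the labels do not tie to libraries, so p-values there treat libraries of an experiment as independent. Libraries of a group differed by more than sampling noise (chi-square per degree of freedom 1.80 to 39.5, 0 identical pairs). The 10 genes, the lists and the motif were chosen with earlier results of these data known. Of each list, up to 4 called genes with the smallest p and up to 2 genes not called with the highest CPM are named, plus, chosen after their values were seen, the remaining genes of some counts of 5 or fewer, and sequences come from RefSeq (GRCm38.p6), which held 6 of the 10 genes. The result of 1 marker list is not reported here.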

Additional observations from a re-analysis of the deposited data

Results flagged for a closer look

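Of 41 groups of 4 to 10 libraries examined, 4 held 1 library far from its group. Chance gives about 1 in 20 for normally distributed values, a rate that does not hold for groups of sparse counts. Cdh5 was at 13.7 CPM in untreated brain replicate 2 and between 19.0 and 19.8 CPM in the other 3. Pecam1 was at 6.02 CPM in slice medium replicate 1, and the next library was at 3.44 CPM. Sele was at 1.73 CPM (13 counts) in GM-CSF replicate 5 and at 0 in the other libraries of that group. Vcam1 was at 28.0 CPM in GM-CSF replicate 3, and the next library was at 10.3 CPM.

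The LPS effect differed between brain tissue and adult microglia, by the interaction test, for Pecam1 (log2 difference 2.68), Kdr (1.54) and Vcam1 (-1.29). For Cd93 the fitted value was 3.53, but it rests on 9 counts in microglia and passed the filter only through brain tissue, so it is not a usable test. The controls were untreated in tissue and PBS-injected for microglia, so the injection and the sample type cannot be told apart in these differences.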

How the results depend on the processing

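Of the values of single genes recomputed, 503 kept direction and side of the limits, 16 came to pass them, 5 no longer passed and 9 changed sign. Without a fold limit the genes called were 1533 in brain tissue (479 with it), 6703 in adult microglia (3563), 4476 for TNF (2353), 2892 for GM-CSF (1222) and 5136 for the difference of LPS effects (3289), and 785 for GM-CSF with codes 2A and 2B alone. Of the 10 genes, and counting Selp, 5 were called in brain tissue under total counts, DESeq2 and limma-voom, 6 with no low-count filter, where Sele was added, and 4 at a minimum count of 30, where Selp was not tested.

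Leaving out 1 library, the genes called ranged from 412 to 543 in brain tissue (4 to 6 of the 10, counting Selp), from 3373 to 4044 in adult microglia (4 to 4), from 3116 to 3663 for the difference (4 to 5, counting Cd93) and from 13369 to 13588 for the level (5 to 6, counting Cd93 and Cdh5, whose level is given with no test). Log2 changes that crossed 0 were Tek in brain tissue (-0.0410 to 0.26), the Cdh5 difference (-0.68 to 0.49), and for GM-CSF, with codes 1A and 1B, Pecam1 (-0.0237), Kdr (-2.04) and Cd93 (-0.15), with limma-voom Kdr (-0.16) and Cd93 (-0.0052), and with codes 2A and 2B Icam1 (0.0099); the cause was not tested. Scaling by total counts gave 814 higher and 460 lower for GM-CSF (548 and 674 with TMM) and moved the median of all genes from -0.04 to 0.07.

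Same-numbered libraries did not deviate together throughout (correlations -0.0779 to 0.184, 6 of the 18 slice pairs over 0.1), so the numbers were not taken to pair them. A fit with the replicate block called 448 genes in brain tissue, 3452 in adult microglia, 2423 for TNF, 1258 for GM-CSF, 3222 for the difference and 12914 for the level (5, 4, 4, 1, 5 and 4 of the 10 genes, counting Selp, Cd93 and Cdh5 wherever they were called). At 8199863 counts and more per brain library, Sele and Selp in untreated tissue lay under the 3 counts taken as a limit.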
